A study of Homo sapiens with 6 samples.

Results

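The alpha and beta globin clusters hold the genes for the protein chains of haemoglobin, and 10 of them were followed here: HBE1, HBG2, HBG1, HBD and HBB on chromosome 11, and HBZ, HBM, HBA2, HBA1 and HBQ1 on chromosome 16. The genes were taken by name, as 10 of 19864 protein-coding genes on chromosomes 1 to 22 and X. All peaks within 500 bp of their annotated transcript starts were collected, with every peak in a 350 kb window around the beta cluster and a 200 kb window around the alpha cluster. The data were run-on sequencing of K562, an established human leukaemia line, grown without treatment and carrying no engineered change named in the labels. PRO-seq lets engaged RNA polymerases add a biotin-labelled nucleotide to the RNA they are making, so that active transcription is mapped. The 3 groups, each of 2 libraries, differed in protocol, input and PCR cycles. PRO-seq 1M followed the published protocol with 1M cells. qPRO-seq 1M followed a quicker protocol with as many cells, and qPRO-seq 250k the quicker protocol with 250k cells. PCR ran for 11 cycles in both 1M groups and for 14 in qPRO-seq 250k.

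One list of dREG peaks stood for both libraries of each group. dREG is a classifier that reads the shape of run-on signal along both strands, marks where promoters or enhancers are active, and scores each site without a unit. Each score is therefore given as a percentile, the percentage of peaks in the same list that scored lower, and it ranks the shape of the signal rather than the amount of RNA. With no value per library there was no spread between replicates to set a difference against, and no test between groups was possible. The depth behind the lists is unknown. Positions refer to build GRCh38 and are counted from 1.

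Haemoglobin is built from a pair of alpha-like and a pair of beta-like chains. In each cluster the genes stand in the order in which they are used in development, embryonic first, and distant enhancers raise their transcription in red cell precursors: the locus control region upstream of HBE1, and a row of enhancers inside and beside NPRL3 upstream of HBZ. K562 cells are known for making embryonic and fetal rather than adult haemoglobin.

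The labels call K562 lymphoblastoid, so the name was set against marker genes. Over all 19864 protein-coding genes, 52.9% had a peak within 500 bp of a transcript start (a start peak) in PRO-seq 1M, 54.5% in qPRO-seq 1M and 44.0% in qPRO-seq 250k. Of 8 erythroid markers, 6 had a start peak in PRO-seq 1M, 7 in qPRO-seq 1M and 6 in qPRO-seq 250k. Among 8 B lymphoid markers the numbers were 2, 2 and 1, with none at PAX5 or MS4A1. Among 8 T lymphoid markers 1 gene, TCF7, had a start peak in each list. Of 8 myeloid markers 3, 3 and 1 had one, among them SPI1 at percentile 99.7 in PRO-seq 1M, and of 8 megakaryocytic markers ITGA2B alone, 1 gene, did so in each list.

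Of the 10 globin genes, 4 had a start peak in PRO-seq 1M, 6 in qPRO-seq 1M and 5 in qPRO-seq 250k. Against the 52.9%, 54.5% and 44.0% of all protein-coding genes, the globin counts lay near the background, below it in PRO-seq 1M and above it in both qPRO-seq lists, which is no result about these genes as a group. All 3 lists placed a start peak at HBE1 and HBZ, which encode embryonic chains, and at HBG1 and HBG2, which encode the fetal gamma chains. When each list was held to the size of the shortest one, HBZ lost its peak in both 1M lists and HBG1 in PRO-seq 1M. HBG2 in both 1M lists and HBE1 in qPRO-seq 1M then kept a start peak only at a distant start described below. HBD had one in both qPRO-seq lists and HBM in qPRO-seq 1M alone. HBB, the adult beta gene, HBA1 and HBA2, used in the fetus and the adult, and HBQ1, the theta globin gene, had none in the lists analysed here. By cluster, 3, 4 and 4 of the 5 beta cluster genes and 1, 2 and 1 of the 5 alpha cluster genes had a start peak.

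Some of these genes have several annotated starts, and a start far from the coding exons can carry the peak. The reference start of each gene was therefore set as the start of a principal transcript nearest to the coding sequence. At reference starts, peaks stood at HBE1, HBG1 and HBZ in all 3 lists, at HBG2 in both 1M lists, and at HBD in both qPRO-seq lists. The plot of score percentiles at reference starts shows how these peaks ranked.

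**Figure D1:**
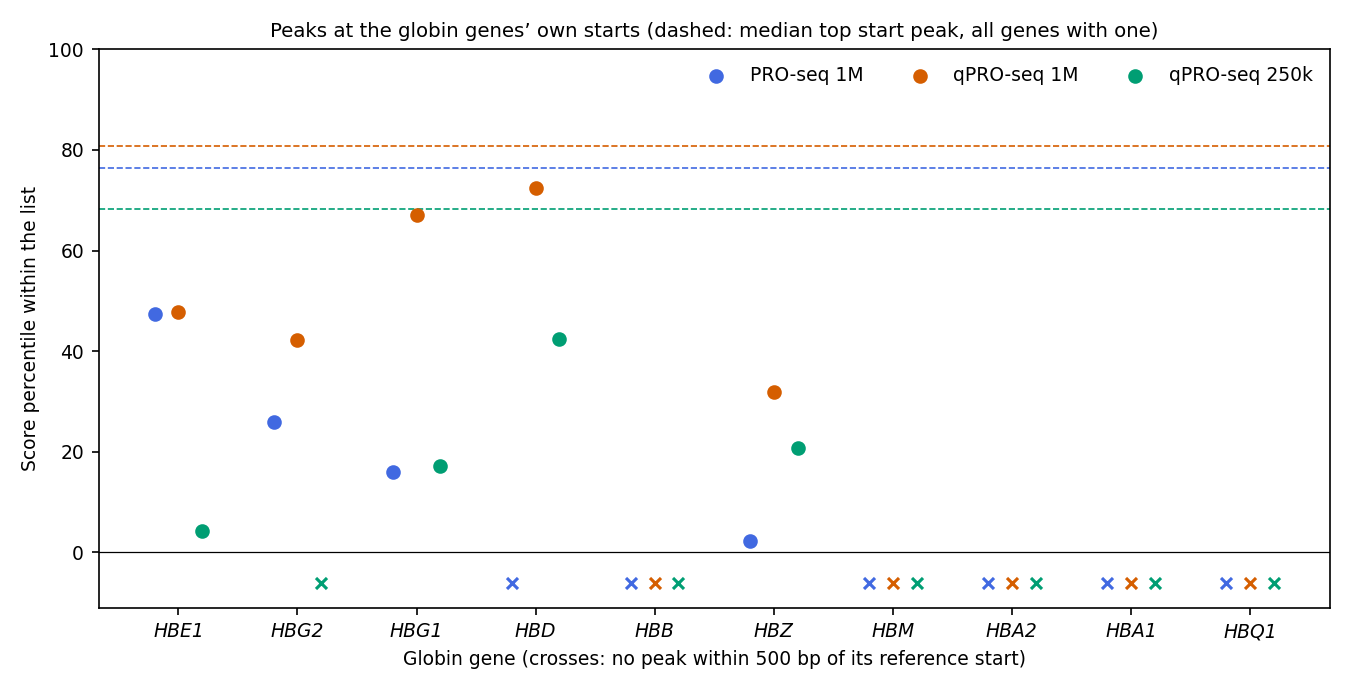
Score percentile of the top peak within 500 bp of each globin gene's reference start (y axis, percent of peaks in the same list with a lower score), by gene (x axis) and list (colour). Crosses below 0 mark genes without such a peak, and dashed lines give the median top start peak over all protein-coding genes that had one (76.4 in PRO-seq 1M, 80.7 in qPRO-seq 1M, 68.2 in qPRO-seq 250k). All globin points lie below the line of their list.

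HBE1 (ENSG00000213931.6, minus strand, reference start 5269945 on chromosome 11) encodes the embryonic epsilon chain. Its reference start lay inside a peak of every list. The PRO-seq 1M peak ran from 5269741 to 5270260, the qPRO-seq 1M peak was wider, from 5269701 to 5270450, and the qPRO-seq 250k peak narrower, from 5269811 to 5270180. Their deposited centres, 5269980, 5269970 and 5269980, stood 35, 25 and 35 bp upstream of the start. The percentiles were 47.3, 47.8 and 4.3, so the peak ranked near the middle of both 1M lists and close to the bottom of the 250k list. Ranked against start-near peaks only, meaning those within 500 bp of any annotated start, it stood at 38.4, 38.3 and 3.1.

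HBZ (ENSG00000130656.4, plus strand, start 152687 on chromosome 16) encodes the embryonic zeta chain and has a single annotated start. Each list had a peak across it, from 152431 to 152730 with PRO-seq 1M, from 152451 to 152930 with qPRO-seq 1M, and from 152401 to 152740 with qPRO-seq 250k. The percentiles were 2.3, 31.8 and 20.7. The embryonic gene of the alpha cluster thus ranked below that of the beta cluster in both 1M lists and above it in qPRO-seq 250k.

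HBG2 and HBG1 encode the fetal gamma chains and are near-identical copies. At the HBG2 reference start (ENSG00000196565.14, 5254811) peaks lay at 5254781 to 5255160 in PRO-seq 1M, percentile 25.9, and at 5254811 to 5255240 in qPRO-seq 1M, percentile 42.3, with the same centre, 5254950. In qPRO-seq 250k the nearest peak was 4.2 kb away, at HBG1, and the HBG2 start peak of that list belongs to a distant start described below. The HBG1 reference start (ENSG00000213934.8, 5249859) lay 42 bp from a PRO-seq 1M peak at 5249901 to 5250270, percentile 16.0, and 32 bp from a qPRO-seq 1M peak at 5249891 to 5250470, percentile 67.0. In qPRO-seq 250k the same stretch was divided into neighbouring peaks, at 5249851 to 5250130 (percentile 17.2) and 5250151 to 5250580 (percentile 15.5). The top HBG1 centres lay 141, 181 and 181 bp upstream of the start, and the HBG2 centre lay 139 bp upstream in both lists that held it.

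The likeness of the gamma genes bears on these positions. Reads were 37 nt long at each end, and 70.2% of the stretches of that length in the HBG2 principal transcript and 54.6% of those in HBG1 also occur in the transcript of another globin gene, the other gamma gene in most cases. Of the stretches within the first 100 bases, 56.2% in HBG2 and all of those in HBG1 did so. How reads with several matches were placed is not given in the sources used here, and the part of this in the HBG1 and HBG2 peaks was not tested.

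HBD (ENSG00000223609.9, minus strand, reference start 5234483) encodes the delta chain, a minor adult chain. It had the highest-ranked peak at a reference start among the globin genes in both qPRO-seq lists, at 5234471 to 5234900 in qPRO-seq 1M, percentile 72.5, and at 5234461 to 5234820 in qPRO-seq 250k, percentile 42.4. PRO-seq 1M held no peak within 15.4 kb of this start. The call was thus in both qPRO-seq lists and not in PRO-seq 1M, a pattern that 2.54% of all joined regions showed. With 1 list per group and depth unknown, protocol was not tested as its source. HBD shares 13.7% of its 37-nt stretches with other globin transcripts, mostly HBB, and 31.2% of those in its first 100 bases. A further qPRO-seq 1M peak at 5242861 to 5243230, percentile 10.6, lay 427 bp from a remote HBD start and 303 bp from the start of HBBP1, a beta globin pseudogene.

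RefSeq sequence upstream of the start was at hand for 2 of the 10 genes, HBD and HBM. HBD had a peak at its reference start in both qPRO-seq lists but not in PRO-seq 1M, and HBM had none. A pair set by the sequences at hand cannot link a motif to a peak. The sequences run from 250 bases before the start to the base before it, 5′ to 3′ on the gene's strand, from GRCh38.p14. They cover chr11:5234484-5234733 (minus strand) and chr16:165728-165977 (plus strand). Capitals mark matches on either strand to 5 motifs. The GATA site was searched as AGATAA and its 3 forms that begin with thymine, end with guanine or do both. The site known for NF-E2 and the AP-1 family was searched as TGAGTCA. The box bound by KLF1 was CCACACCC. The box bound by NF-Y was CCAAT, and the TATA-like run was ATAAAA.
HBD: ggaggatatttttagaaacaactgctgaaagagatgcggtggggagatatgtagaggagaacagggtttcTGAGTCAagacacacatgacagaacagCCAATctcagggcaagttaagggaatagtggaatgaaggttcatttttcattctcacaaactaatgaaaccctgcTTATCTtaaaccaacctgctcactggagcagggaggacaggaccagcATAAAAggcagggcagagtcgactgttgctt
HBM: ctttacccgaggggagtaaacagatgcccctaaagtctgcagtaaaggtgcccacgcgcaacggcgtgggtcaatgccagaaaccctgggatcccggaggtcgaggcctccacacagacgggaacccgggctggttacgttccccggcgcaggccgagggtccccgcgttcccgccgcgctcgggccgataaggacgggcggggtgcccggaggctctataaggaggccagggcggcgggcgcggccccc

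The HBD sequence held 1 match each to the TATA-like run, the GATA site, the letters CCAAT and TGAGTCA. These matches began 31, 78, 153 and 180 bases before the start, the GATA match on the opposite strand. Whether the CCAAT match serves as an NF-Y box was not tested. The HBD sequence held no CCACACCC and no wider KLF-type match (CCNCNCCC, which includes CCACACCC). The HBM sequence held none of the 5 marked motifs and 2 matches to CCNCNCCC, both on the opposite strand. E-boxes (CANNTG) numbered 2 in HBD and 1 in HBM, and neither held the known composite of an E-box remnant and a GATA site. Over 35114 RefSeq sequences of this length, the share with a match was 22.3% for the GATA site, 4.2% for TGAGTCA, 3.0% for CCACACCC, 32.0% for CCAAT, 14.8% for ATAAAA, 53.4% for CCNCNCCC, 61.8% for CANNTG and 0.6% for the composite. Both qPRO-seq peaks at HBD covered the whole printed stretch, and no peak touched that of HBM. G and C made up 45.2% of the HBD stretch and 69.2% of that of HBM, against a median of 58.0% over all. A match is a string of letters and does not show that a factor was bound.

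HBM (ENSG00000206177.6, plus strand, reference start 165978 on chromosome 16) encodes mu globin, an alpha-like chain. Its start peak in qPRO-seq 1M, at 164901 to 165410 and percentile 13.0, lay 419 bp from the start of a non-coding HBM transcript, inside the limit, and 568 bp from the coding start, outside it. It overlapped an exon of the zeta pseudogene HBZP1. With protein-coding transcripts alone HBM had no start peak.

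HBA2 (ENSG00000188536.13, start 172876) and HBA1 (ENSG00000206172.8, start 176680) encode the alpha chain, the alpha-like chain of fetal and adult haemoglobin. Their nearest peaks in the 1M lists belonged to a region at 169971 to 170480, between genes, 2.6 kb upstream of HBA2 in PRO-seq 1M (percentile 26.2) and 2.4 kb in qPRO-seq 1M (percentile 9.9). qPRO-seq 250k held no peak nearer than 20.1 kb from HBA2. HBQ1 (ENSG00000086506.2, start 180453) lay 10.2, 10.0 and 27.7 kb from the nearest peak. The stretch without a peak that holds HBA2, HBA1 and HBQ1 ran for 58.6 kb in PRO-seq 1M, 58.3 kb in qPRO-seq 1M and 76.2 kb in qPRO-seq 250k, up to the start of LUC7L. HBA1 and HBA2 are close copies: 82.1% and 82.2% of their 37-nt stretches, and all of those in their first 100 bases, occur in another globin transcript, while none of those of HBQ1 do. A missing peak at HBA1 and HBA2 therefore cannot be told apart from reads that were not placed. The lists do not show whether these genes were transcribed. HBG1 also shared all stretches of its first 100 bases and had a peak at its reference start in every list. The top HBG1 peaks were centred upstream of that start, so HBG1 was no test of the missing HBA1 and HBA2 peaks. Stretches were counted within transcripts and not in the sequence upstream of the starts.

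HBB (ENSG00000244734.4, minus strand, start 5227071) encodes the adult beta chain. The nearest peak lay 22.8 kb away in PRO-seq 1M and 7.4 kb away in both qPRO-seq lists, where it was the HBD peak. From the downstream end of the window to HBG1 or HBD, the stretch that holds HBB had no peak for 49.9 kb in PRO-seq 1M and 34.5 kb in each qPRO-seq list. HBB shares 13.5% of its 37-nt stretches with other globin transcripts, mostly HBD, and 31.2% of those in its first 100 bases.

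Peaks away from the gene starts marked the upstream side of the beta cluster. The locus control region is known as a series of nuclease-sensitive enhancer sites numbered outward from HBE1. Peaks lay 6.0, 10.9 and 15.4 kb upstream of the HBE1 reference start, the order and spacing known for HS1, HS2 and HS3, although no annotation used here marks these sites. The nearest of them, at 5275751 to 5276110, was the one found in all 3 lists, at percentiles 40.9, 37.9 and 27.2, with centres within 60 bp of each other. It lies in introns of long HBE1 and HBG2 transcripts. Against distal peaks only (those not start-near), it ranked at 58.8, 48.0 and 40.9. The others, at 5280681 to 5280960 (percentile 7.2) and 5285091 to 5285530 (percentile 27.9), occurred in qPRO-seq 1M alone. The second of these sites is known as a strong enhancer in reporter assays, and here its peak was the lowest-ranked one of the beta window within qPRO-seq 1M.

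**Figure D2:**
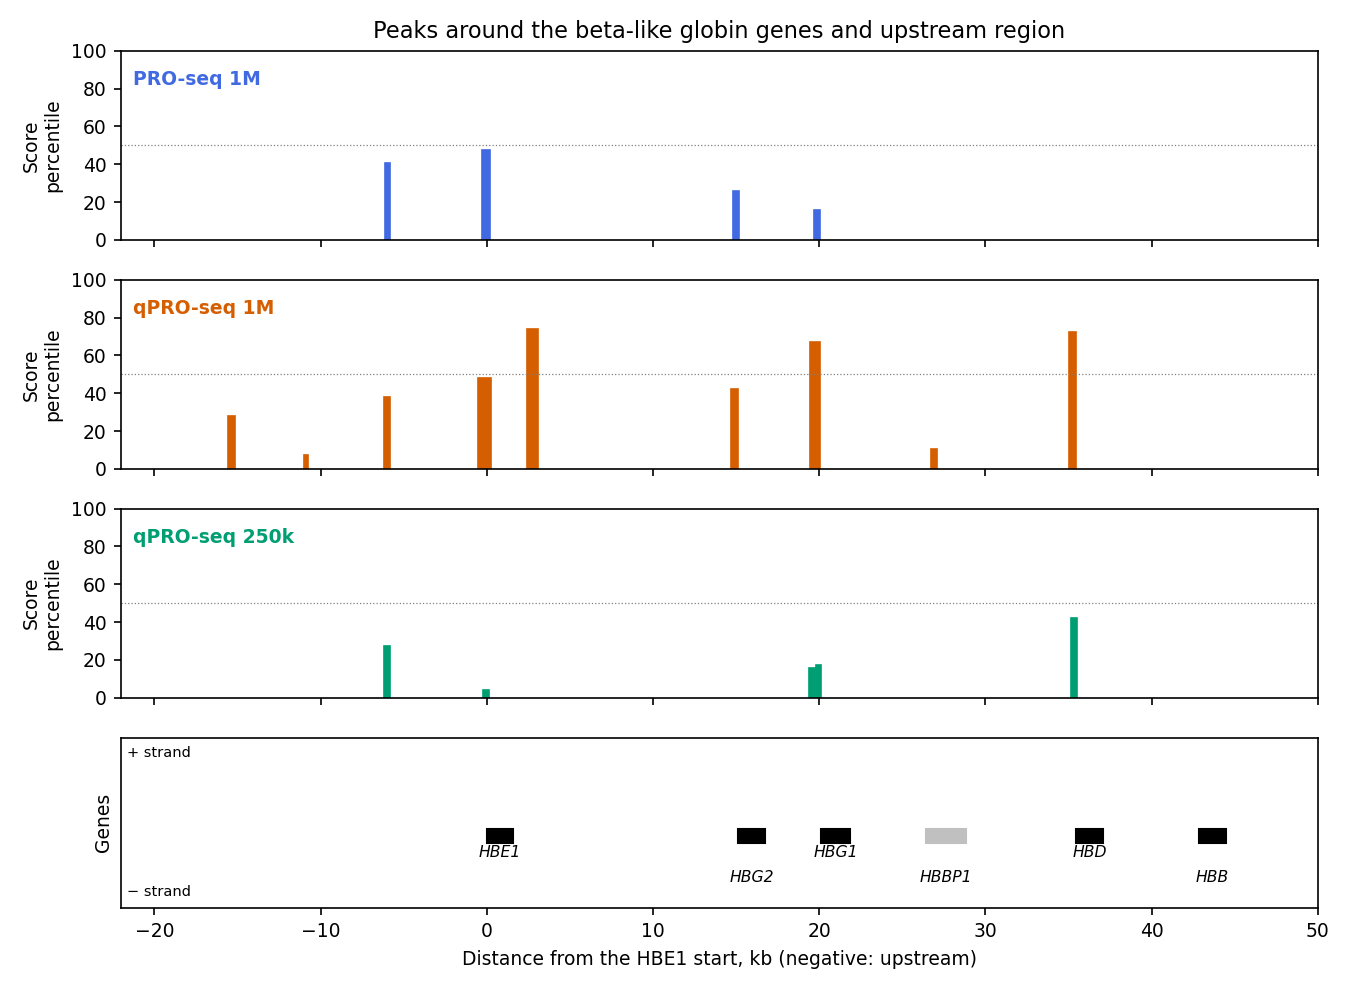
Peaks around the beta-like globin genes in each list, drawn as bars whose width is the peak's extent and whose height is its score percentile (y axis, 0 to 100, dotted line at 50), by distance from the HBE1 reference start in kb (x axis). The bottom panel shows principal globin transcripts (black) and the pseudogene HBBP1 (grey). The peaks at -6.0 kb and at the HBE1 start occur in all lists, and the HBD peak near 35 kb in the qPRO-seq lists.

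Inside the cluster, a qPRO-seq 1M peak at 5266851 to 5267550, 2.7 kb downstream of the HBE1 start and beyond the end of the HBE1 transcript, reached percentile 73.7, or 83.9 among distal peaks. No other list had a peak there, although it was the second highest in the window in qPRO-seq 1M.

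The top-ranked peak of the beta window in each list lay far from the globin exons, 235.8 kb upstream of the HBE1 reference start. The joined region spanned 5505251 to 5506010, with percentiles of 92.0, 96.3 and 90.7. It covers the first exon of long transcripts that GENCODE assigns to HBE1, HBG2 and OR51B5, an olfactory receptor gene, with starts at 5505604 to 5505652. This is the peak that gave HBG2 its call in qPRO-seq 250k, and that list kept 4 globin genes when transcripts starting over 10 kb from the coding exons were left out. A weaker peak, at 5504291 to 5504550 and percentile 27.8, stood beside it in qPRO-seq 1M alone.

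Between the upstream peaks and this far start lay the longest empty stretch of the window, 229.2 kb in PRO-seq 1M, 218.8 kb in qPRO-seq 1M and 229.2 kb in qPRO-seq 250k. The window holds 11 protein-coding olfactory receptor genes, which code for odour receptors of the nose. OR51B5, through the long transcript, had a start peak in each list, and the other 10 had none in any. Of all 15 protein-coding genes of the window that are not globin genes under study, 2, 2 and 1 had a start peak. The shares over all protein-coding genes were 52.9%, 54.5% and 44.0%. The gene called besides OR51B5 was AC104389.5, which overlaps the gamma genes.

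Upstream of the alpha genes lies NPRL3 (chromosome 16, 84271 to 138860), a housekeeping gene whose introns are known to hold alpha globin enhancers, and several distal peaks fell within it. A region at 119911 to 120270, 32.6 kb upstream of HBZ, occurred with the same borders in both 1M lists, at percentiles 47.2 and 62.7, or 66.2 and 74.4 among distal peaks. It lay 506 bp from an NPRL3 transcript start, just outside the limit. A qPRO-seq 1M peak at 113511 to 114410, 39.0 kb upstream of HBZ, stood at percentile 13.9. Its distance is that known for MCS-R2, the strongest of the alpha enhancers, but no annotation used here names the site. Over the whole alpha window PRO-seq 1M had 2 distal peaks, qPRO-seq 1M had 6 and qPRO-seq 250k had none. Those outside NPRL3 were at 169971 to 170480, upstream of HBA2 in both 1M lists, and at an MPG exon in qPRO-seq 1M.

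Each list also placed a peak at the start of NPRL3, in a region at 138201 to 139120, with percentiles of 79.0, 69.6 and 49.6. Further qPRO-seq 1M peaks followed inside the gene, at 136781 to 137000, 137021 to 137470 and 137721 to 138200, with percentiles of 14.8, 48.6 and 17.5. They stood 14.8 to 15.7 kb upstream of HBZ.

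**Figure D3:**
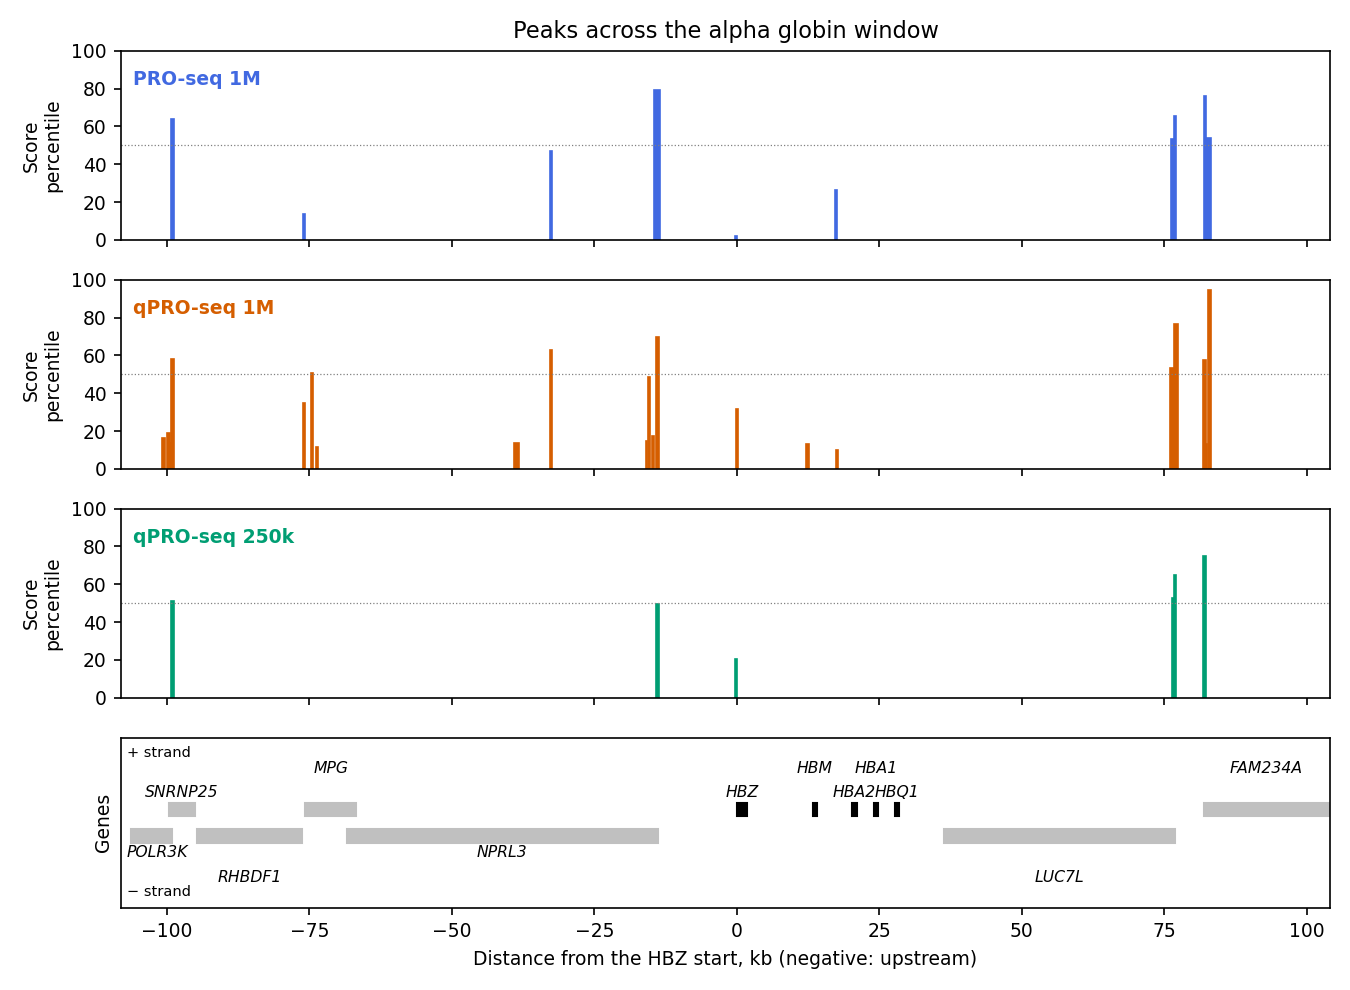
Peaks across the alpha globin window in each list, drawn as bars whose width is the peak's extent and whose height is its score percentile (y axis, 0 to 100, dotted line at 50), by distance from the HBZ start in kb (x axis). The bottom panel shows globin transcripts (black) and neighbouring genes (grey) by strand. High bars stand at the NPRL3, LUC7L and FAM234A starts, and no bar stands over HBA2, HBA1 or HBQ1.

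Of 8 protein-coding neighbours of the alpha genes, 7, 7 and 5 had a start peak. The numbers for the 5 alpha cluster genes were 1, 2 and 1. Over all protein-coding genes the shares were 52.9%, 54.5% and 44.0%. Some neighbours share a peak, and with so few genes the counts are no result about either set. FAM234A reached percentiles 75.9, 94.8 and 75.0, the highest start peak of the window in the qPRO-seq lists, and NPRL3 was highest in PRO-seq 1M. The FAM234A start lay at neighbouring regions, 234451 to 234960 in all lists (75.9, 57.3 and 75.0) and 234961 to 235930 in both 1M lists (53.8 and 94.8). LUC7L, a splicing factor gene, stood at 65.5, 76.4 and 64.7 at 229311 to 230100, beside a region at 228751 to 229310 with 53.5, 53.1 and 52.8. POLR3K, a subunit of RNA polymerase III, and SNRNP25, a spliceosome protein, share a start region at 53261 to 53980, at 64.1, 58.2 and 51.0. MPG, a DNA repair glycosylase, and RHBDF1, next to it, shared a peak at 76561 to 77020 in both 1M lists, at 13.7 and 34.6, and MPG had a further one at 78001 to 78300, percentile 50.5, in qPRO-seq 1M. The remaining regions of the window, at 51841 to 52350, 52761 to 53240 and 78831 to 79300, were in qPRO-seq 1M alone at percentiles 16.5, 18.8 and 11.7.

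Genes that act on the globin clusters were looked up the same way. Of 14 factor genes, 14, 14 and 11 had a start peak, against 52.9%, 54.5% and 44.0% of all protein-coding genes, and LMO2, MAFK and ZFPM1 lacked one in qPRO-seq 250k. GATA1, the main erythroid GATA factor, stood at percentiles 53.0, 46.9 and 37.5, TAL1, its E-box partner, at 94.1, 74.0 and 39.6, KLF1, which binds CACCC boxes, at 43.3, 63.1 and 29.4, and NFE2, which binds the locus control region, at 44.8, 62.1 and 14.8. Of 8 genes for other red cell products, 4, 6 and 4 had a start peak. ALAS2, the erythroid enzyme that starts haem synthesis, stood at 67.0, 69.5 and 48.5, while AHSP, the chaperone of free alpha chains, had none. Of the globin family genes outside the clusters, CYGB had a start peak in both 1M lists, and MB and NGB had none.

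PRO-seq 1M placed 15 peaks in the windows together, qPRO-seq 1M placed 32 and qPRO-seq 250k placed 12. In the beta window the numbers were 5, 11 and 6, and in the alpha window 10, 21 and 6, against 24707, 38177 and 15562 in the whole lists. The median percentile of the beta peaks was 40.9, 42.3 and 22.2, below the 50.0 that a whole list has by construction, with 1, 4 and 1 peaks above the middle. That of the alpha peaks was 53.7, 31.8 and 51.9.

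Joining overlapping peaks of the 3 lists gave 30 regions in the windows, of 34308 in all. All 3 lists held 10 of the 30 (33.3%, Wilson 95% interval 19.2 to 51.2), against 34.5% of all regions. qPRO-seq 1M alone held 14 (46.7%, 30.2 to 63.9), against 37.0% overall. Both 1M lists alone held 5, against 18.3% of all regions, and both qPRO-seq lists alone held 1, the HBD start, against 2.54%. No region was found in PRO-seq 1M alone, in qPRO-seq 250k alone or in these lists without the third (each 0 of 30, interval up to 11.4%), against 6.14%, 1.04% and 0.379% overall. The intervals cover counting error only and include the overall values, so the sharing was not distinguishable from that of the genome at this number of regions.

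**Figure D4:**
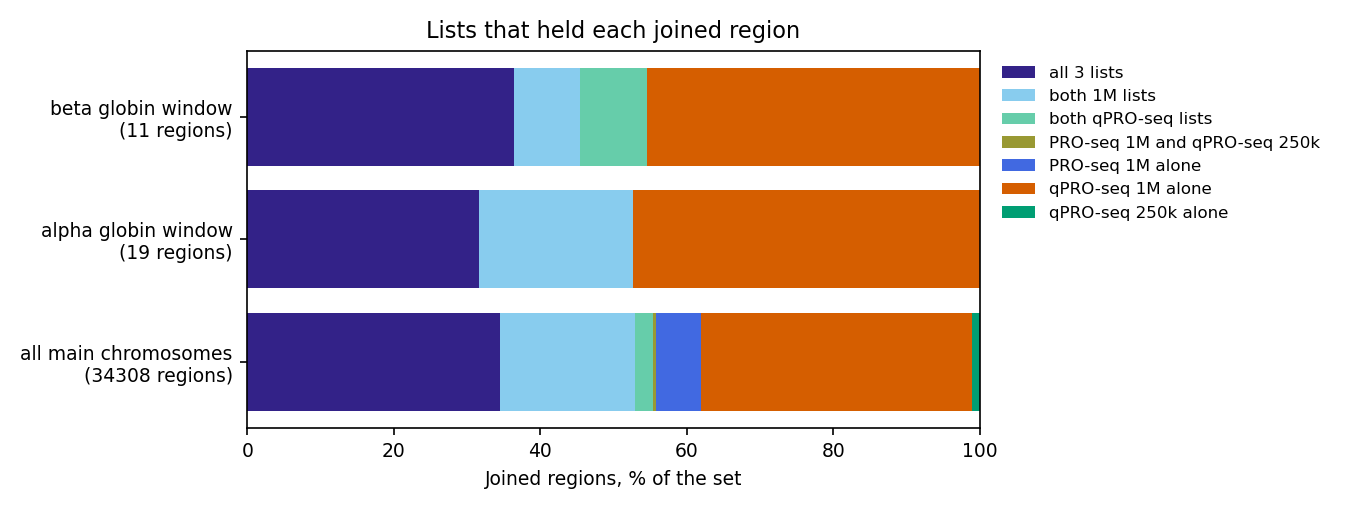
Joined regions by the lists that held them (colour), as a percentage of the regions in each set (x axis), for the beta window (11 regions), the alpha window (19 regions) and all main chromosomes (34308 regions). The part in all 3 lists is 36.4% (beta), 31.6% (alpha) and 34.5% (all), and no part of either window is PRO-seq 1M alone.

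Seen from single lists, qPRO-seq 1M overlapped all 15 PRO-seq 1M peaks of the windows, against 90.6% of that whole list, and all 12 qPRO-seq 250k peaks, against 96.6%. qPRO-seq 250k overlapped 4 of the 5 beta and 6 of the 10 alpha peaks of PRO-seq 1M, against 60.2% overall. PRO-seq 1M overlapped 5 of the 6 beta and all 6 alpha peaks of qPRO-seq 250k, against 91.2%. In the other direction, PRO-seq 1M overlapped 45.5% (21.3 to 72.0) of the 11 beta and 57.1% (36.5 to 75.5) of the 21 alpha peaks of qPRO-seq 1M, against 63.3%. qPRO-seq 250k overlapped 45.5% (21.3 to 72.0) and 33.3% (17.2 to 54.6) of them, against 44.1%. The peaks that the longer qPRO-seq 1M list added in the windows included sites 10.9 and 15.4 kb upstream of HBE1, the site 39.0 kb upstream of HBZ and the peak next to HBM. Depth, list length, protocol, input and PCR cycles cannot be told apart as sources of these calls.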

How the data were processed

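Run-on libraries were made from K562 cells in 3 groups of 2 replicates, at least 3 passages apart per the labels, with paired reads of 37 nt. The submitters' processing notes name fastp 0.20.0, Bowtie2 2.3.5.1, deepTools 3.1.3, UMI-tools and build GRCh38 (hg38). The dREG version and thresholds and the pooling of replicates are not given in the sources used here. The deposited score of each peak has no unit and was ranked within its list. The p-value the authors deposited per peak reached 0.05 at most. It served as a filter and was set beside the ranks under the other observations.

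GENCODE 29 gave transcript starts. Peaks were matched at 1 bp of overlap on chromosomes 1 to 22 and X with pandas 2.3.3, and scipy 1.17.1 gave the intervals. The steps were tested on simulated lists. All 10 globin genes were named, with every region between the clusters' outermost genes and their upstream enhancers and the 8 top-ranked regions per window. The genes, gene lists and rules were chosen with earlier results of these data known. With no genome sequence used here, motifs were counted in RefSeq promoters in place of peaks, and repeated stretches within the globin transcripts. Alternatives were p at most 0.01, merging within 500 bp, equal list sizes, peaks at or above the median score, other overlap rules, windows, transcript sets and rank bases, and, added after seeing the data, joining of abutting peaks.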

Additional observations from a re-analysis of the deposited data

How the results depend on the processing

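No paired analysis was possible because each group had 1 list for both replicates; for the same reason no replicate could be left out. Of 101 alternative values, 70 stayed within 1.5 times the count, or within the 95% interval of the share, and 31 moved. The 31 include all 12 median percentiles, which were held to the narrow binomial interval of a rank in the whole list. The cause was not tested except where the setting itself shortens the lists. With each list at its 15562 top-scored peaks, which shortens both 1M lists by construction, the beta window held 3 PRO-seq 1M and 4 qPRO-seq 1M peaks against 6 of qPRO-seq 250k, and the alpha window 7, 4 and 6, so that qPRO-seq 1M no longer had the most peaks in either. Start peaks then stood at 2 globin genes in PRO-seq 1M, without HBG1 and HBZ, and at 4 in qPRO-seq 1M, without HBM and HBZ. HBG2 in both 1M lists and HBE1 in qPRO-seq 1M stayed in these counts only through the far upstream start, their reference-start peaks being dropped. The share of regions in qPRO-seq 1M alone became 16.7% (1 of 6, beta) and 0.0% (0 of 8, alpha). With peaks at or above the median score it was 75.0% (3 of 4) and 25.0% (2 of 8). At equal sizes, qPRO-seq 1M overlapped 33.3% (1 of 3) of the beta and 57.1% (4 of 7) of the alpha peaks of PRO-seq 1M. It overlapped 33.3% (2 of 6) of the alpha peaks of qPRO-seq 250k. PRO-seq 1M overlapped 100% (4 of 4) of the alpha peaks of qPRO-seq 1M. In the beta window, qPRO-seq 250k overlapped 100% (3 of 3) of the PRO-seq 1M and 75.0% (3 of 4) of the qPRO-seq 1M peaks. Many of these shares rest on few peaks. Merging within 500 bp left 12 qPRO-seq 1M peaks in the alpha window. With centres within 100 bp, qPRO-seq 1M matched 70.0% (7 of 10) of the PRO-seq 1M and 50.0% (3 of 6) of the qPRO-seq 250k alpha peaks. Of the alpha peaks of qPRO-seq 1M, PRO-seq 1M matched 33.3% (7 of 21) and qPRO-seq 250k 14.3% (3 of 21). Median percentiles, with the published protocol first and 250k cells last, were 31.1, 49.1 and 15.4 (beta) and 46.0, 38.6 and 41.1 (alpha) among peaks with p at most 0.01. Among peaks of the same class, start-near or distal, they were 38.4, 38.3 and 25.2 (beta) and 50.1, 24.0 and 46.2 (alpha), so the beta order of the 1M lists changed. Joining abutting peaks, chosen after seeing the data, left the beta regions as they were and gave 5 of 16 alpha regions in all 3 lists.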

Other observations

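A deposited p of exactly 0 was given to 4852, 8054 and 1928 peaks of the whole lists (PRO-seq 1M first, 250k cells last), and in the globin windows to peaks of both high and low rank. The far upstream start at OR51B5 had it at percentiles 92.0 and 96.3 in the 1M lists, and FAM234A at 94.8 in qPRO-seq 1M. The HBZ start peak of PRO-seq 1M had a p of 0 at percentile 2.3, that of qPRO-seq 250k at percentile 20.7, and the HBE1 start peak of qPRO-seq 250k at percentile 4.3. At HBG1 a p of 0 went with percentile 16.0 in PRO-seq 1M and 17.2 in qPRO-seq 250k. In the same regions the qPRO-seq 1M peaks ranked from percentile 31.8 to 67.0 and had p-values above 0, such as 0.00416 at HBZ and 2.58e-07 at HBG1. Elsewhere in the alpha window qPRO-seq 1M also had low-ranked peaks with a p of 0, at percentiles 16.5 and 14.8.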
